A study of Zea mays with 12 samples.

Results

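The bZIP transcription factor genes of maize were followed in the stem of plants that had been infested, wounded or wounded and treated with caterpillar regurgitate. The members were the maize gene features whose deposited description contains the word bZIP and not the word homeobox. This rule found 63 of 29723 maize gene features and left out 1 feature that carried both words. A total of 42 members matched a gene of the RefSeq annotation of assembly Zm-B73-REFERENCE-NAM-5.0 by identifier, which gave the names used here, and 21 did not match. Coordinates are not given because that assembly is not the one the counts were made on.

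The plants were of the inbred line PB130, grown in a greenhouse, and stem tissue was collected at day 15 after the start of the treatments. There were 3 libraries in each of 4 groups. The labels and the study's methods give different numbers of plants per treatment, so that the number of plants behind a library is not certain, and the tests measure the spread between these libraries. Control plants were untreated. Larva plants carried larvae of *Sesamia nonagrioides*, the Mediterranean corn borer, placed between leaf sheath and stem. Wounding plants had scratches made with a scalpel on the leaf sheaths, to which phosphate buffer was applied. Regurgitate plants had the same scratches treated with *S. nonagrioides* regurgitate in the same buffer. Both wound treatments were renewed on alternate days, and the collected internode section was itself free of damage. The labels call the 3 samples of a treatment biological replicates, and the tissue label is stem.

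bZIP proteins carry a basic region that contacts DNA and a leucine zipper through which they pair, and many bind sequences with an ACGT core. In plants the family takes part in light responses (G-box binding factors), abscisic acid responses (ABF and AREB factors), salicylic acid dependent defense (TGA factors, which bind the co-regulator NPR1), flowering (FD, which acts with florigen and 14-3-3 proteins), the response to misfolded proteins in the endoplasmic reticulum, and responses to cold and sugar (the small ocs element-binding factors). TGA and ocs factors were first studied through the as-1 and ocs elements, promoter sequences that respond to defense hormones and oxidative stress.

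The libraries held between 5636047 and 10040615 counts, of which between 3047770 and 8390616 lay on maize genes. The rest included contigs assembled from reads that did not map to maize. Contigs were taken as fungal where they matched proteins of a set list of fungal genera, so that other fungi are not counted. These contigs held 0.239 to 0.502% of the counts in control libraries and 10.9, 24.9 and 12.4% in wounding libraries. In regurgitate libraries 1, 2 and 3 these shares were 4.57, 14.7 and 0.0604%. Larva 1 had 3.32%, against 0.224 and 0.237% in larva 2 and 3. It also had 83303 counts on a contig described as maize chlorotic dwarf virus, against at most 444 in any other library. Contigs of all kinds held 2.34 to 4.13% of the counts in control libraries and 17.4, 34.5 and 24.6% in wounding libraries. In regurgitate libraries 1, 2 and 3 they held 19.3, 48.1 and 1.03%. Maize genes held 44.3% of the counts in regurgitate 2 and 58.5% in wounding 2. Larva 2 and 3 were much more alike than other replicates of 1 group: a chi-square test of their counts on 20761 genes gave 1.55 times its degrees of freedom, against 16.6 to 67.8 times for the other pairs. They were kept as separate samples because the labels give them as such and their counts differ beyond sampling noise, which does not show that they come from separate plants. With both summed as 1 sample, 15 bZIP genes in place of 20 passed the test over the 4 treatments, and 0 as before passed between larva and control. Secondary wall and lignin genes, the markers for stem, summed to between 944 and 4050 CPM (counts scaled to a common library size) and were present in all 12 libraries, while zein genes, the markers for endosperm, summed to at most 23.2 CPM. Chlorophyll-binding and carbon fixation genes of leaf were higher than the stem markers in every library, at 4152 to 9014 CPM. Pollen genes summed to between 323 and 607 CPM. These sums do not single out stem, and the tissue is known from its label.

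The family as a whole was dominated by 1 gene. In this assay (MACE, massive analysis of 3′-cDNA ends) each transcript gives 1 fragment near its 3′ end, so that a level in CPM does not scale with gene length and levels can be set beside each other. Mean levels over the 12 libraries reached 482 CPM in GRMZM2G448607, the only member over 100 CPM. Another 25 members lay between 10 and 100 CPM, 15 between 1 and 10 CPM and 22 below 1 CPM. GRMZM2G448607 ranked 207 among all maize genes, while the next member, GRMZM2G011932, had 71.8 CPM and ranked 2826. A count was seen in all 12 libraries for 42 members, and 6 members had 3 counts or fewer in the whole data set.

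**Figure D1:**
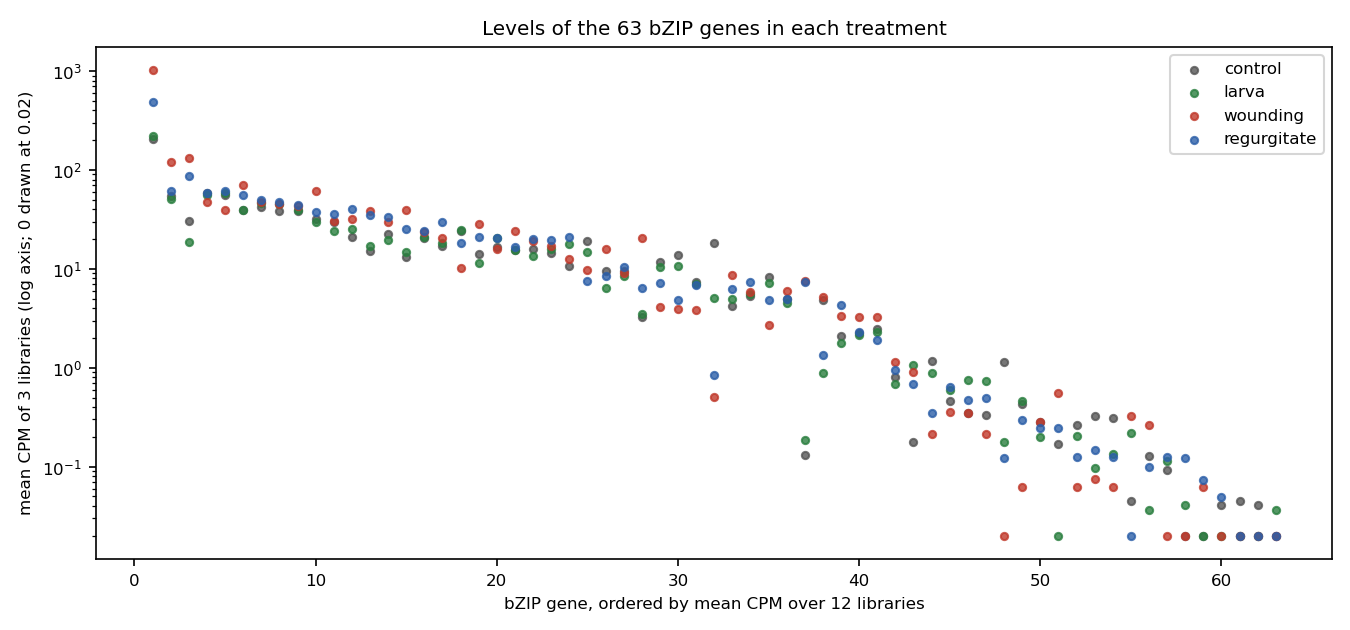
Mean CPM of 3 libraries (log axis) for each of the 63 bZIP genes in each treatment, ordered from the highest to the lowest mean over 12 libraries, with a mean of 0 drawn at 0.02. By the mean over 12 libraries a single gene lies over 100 CPM and 22 genes lie under 1 CPM, and in wounding libraries alone GRMZM2G011932 (120.1 CPM) and GRMZM2G103647 (132 CPM) also pass 100 CPM.

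A total of 39 members passed the filter on low counts in all 4 pairwise comparisons and 2 passed in some of them. The other 22 members were left out of these tests, and none of them exceeded 1.79 CPM in any library. Among them were several genes with well known relatives. FEA4 (GRMZM2G133331), which limits the size of shoot meristems in maize, had 3 counts over all libraries. bZIP50 (GRMZM2G336766), an ocs element-binding factor, had 2 counts. The only member described as an abscisic acid response element binding factor, GRMZM2G168079, had 15 counts, spread over 7 libraries. FEA4, bZIP50 and GRMZM2G168079 had too few counts for a response to the treatments to be followed.

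The first comparison asked how the stem responded to wounding, the treatment under which regurgitate was applied. Of the 41 members tested, 19 passed the test, 13 higher and 6 lower in wounding than in control libraries (edgeR's quasi-likelihood test, Benjamini-Hochberg FDR under 0.05 over all maize genes tested). Over all maize genes 38.8% passed, 19.6% higher and 19.3% lower, so that members were called at 46.3% against that background. The median log2 fold change was 0.26 over the members and -0.01 over all genes tested, and 30 members had positive values. The groups did not overlap for 21 members, 51.2% against 55.2% of all genes. The split in direction depended on scaling. With libraries scaled by their total counts on maize genes only, 12 members passed, 5 higher and 7 lower, against 47.5% of all genes, and the median of all genes moved to -0.44. With every deposited feature in the fit, contigs included, 14 passed, 7 higher and 7 lower, against 50.1% of all features. Of the 19 members, 8 passed under every alternative run, namely GRMZM2G000842, GRMZM2G066734, GRMZM2G079365, GRMZM2G134863, GRMZM2G171912, GRMZM2G175870, GRMZM2G448607 and GRMZM5G858197. GRMZM2G000842 and GRMZM2G066734 passed the filter only through the group in which they are high and so had to differ. Both are also among the 21 members that did not overlap. Without them 17 of 39 members passed, 12 higher and 5 lower, and 6 passed under every alternative.

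Among the ocs element-binding factors, GRMZM2G448607 rose after wounding. It encodes mlip15, a small bZIP protein named for its induction by low temperature in maize. Its levels were 252, 160 and 199 CPM in the control libraries and 838, 1497 and 720 CPM in the wounding libraries, so that the groups did not overlap. The log2 fold change was 2.31 ± 0.36 (SE, edgeR's quasi-likelihood test, FDR 0.00372). In larva libraries it stayed within the control range, at 227, 213 and 217 CPM. In regurgitate libraries it was 406, 864 and 187 CPM, a spread that ran from inside the control range to inside the wounding range. The library with 187 CPM was the one with 0.0604% of its counts on fungal contigs, and the library with 864 CPM the one with 14.7%. The part of the fungal material in this result was not tested.

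The summed level of all members followed this gene. It was 878 to 1033 CPM in control, 862 to 1018 CPM in larva, 1045 to 2023 CPM in regurgitate and 1640 to 2701 CPM in wounding libraries. GRMZM2G448607 made up 18.3 to 24.4% of that sum in control libraries and 43.9 to 55.4% in wounding libraries. Without it the sums were 718 to 821 CPM in control and 920 to 1204 CPM in wounding libraries, which did not overlap. That separation depended on scaling: with sums scaled by total counts on maize genes only, a setting chosen after seeing the data, they were 786 to 961 in control and 759 to 937 in wounding libraries, which overlapped. With GRMZM2G448607 included, these sums were 961 to 1195 in control and 1352 to 2103 in wounding libraries and did not overlap.

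**Figure D2:**
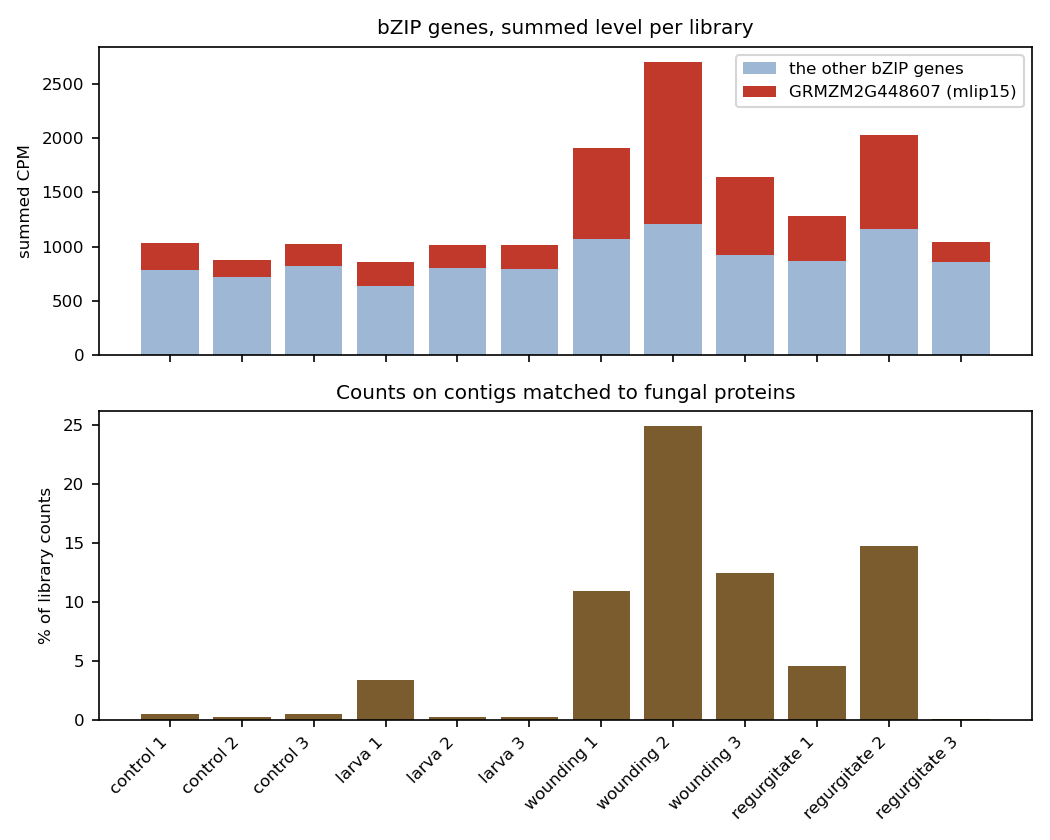
Summed CPM of the 63 bZIP genes in each library (upper bars, with GRMZM2G448607 in red) and the percentage of library counts on contigs matched to fungal proteins (lower bars). The wounding libraries have fungal shares of 10.9 to 24.9% and summed bZIP levels between 1640 and 2701 CPM, and regurgitate 2 has 14.7% and 2023 CPM.

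A further ocs factor that was expressed behaved differently. bZIP84 (GRMZM2G361611) had 57.4, 48.9 and 68.9 CPM in control libraries and 61.9, 19.9 and 58.8 CPM in wounding libraries, and did not pass the test in any pairwise comparison. Its low value in wounding 2 was the only one under 48 CPM in the 12 libraries. Wounding 2 was also the library with the highest mlip15 level and the highest fungal share.

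The members next to GRMZM2G448607 in mean level were GRMZM2G011932 and GRMZM2G103647. GRMZM2G011932, named GBF1 in RefSeq, is a G-box binding factor. It had 47.2, 47.5 and 70.0 CPM in control and 114, 152 and 94.6 CPM in wounding libraries, without overlap, and rose with a log2 fold change of 1.12 ± 0.26 (SE, edgeR FDR 0.0141), a call that was lost without control 2 and with scaling by total counts only. In larva libraries it was 25.4, 64.5 and 60.9 CPM, with larva 1 alone below every control library. In regurgitate libraries it was 64.5, 69.1 and 51.9 CPM, below all wounding libraries and within the control range.

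GRMZM2G103647 is described as the light-inducible protein CPRF-2, after a parsley factor that binds light-responsive promoters. It had 30.3, 25.8 and 35.2 CPM in control and 96.9, 256 and 43.0 CPM in wounding libraries. The groups did not overlap, but wounding 2 was far above the others. The log2 fold change was 2.11 ± 0.60 (SE, edgeR FDR 0.0298), and without wounding 2 it was 1.20 (FDR 0.0474). The call was lost without any 1 control library and when replicate numbers entered the fit as blocks. In larva libraries the levels were 23.5, 16.7 and 16.6 CPM, all below the control libraries. The difference between larva and control was -0.70 ± 0.19 on the log2 scale and did not pass (edgeR FDR 0.334). In regurgitate libraries it had 30.5, 193 and 39.9 CPM, so that regurgitate 2 stood alone.

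G-box-binding factor 4 (GRMZM2G132868, bZIP116) showed another pattern. It was most even in regurgitate libraries, at 29.8, 29.5 and 29.4 CPM, and these lay above all 3 control libraries (15.2, 22.2 and 13.6 CPM) and all 3 wounding libraries (25.7, 17.9 and 18.6 CPM). The log2 fold change was 0.78 ± 0.23 against control and 0.51 ± 0.21 against wounding, and neither passed (edgeR FDR 0.151 and 0.241).

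TGA4, the Liguleless2-like gene and obf3.2 were not called in any pairwise comparison. TGA factors carry salicylic acid signals to defense genes. TGA4 (GRMZM2G094352, bZIP107) had 15.4, 8.96 and 7.42 CPM in control libraries and 8.48, 24.4 and 20.4 CPM in larva libraries. Its log2 fold change of 0.72 ± 0.44 was the highest positive value of any member in that comparison, and it did not pass (edgeR FDR 0.680). It rested on single libraries, being 0.41 without larva 2, 1.07 without larva 1 and 1.10 without control 1. In wounding libraries TGA4 was 22.9, 7.43 and 7.38 CPM, with 1 library above and the others at or below the control range. In regurgitate libraries it was 22.5, 19.1 and 21.1 CPM, above every control library, with a log2 difference of 0.96 ± 0.31 (edgeR FDR 0.172). The Liguleless2-like gene AC232238.2_FG004, a relative of the factor that places the ligule on the maize leaf, had 4.69, 3.14 and 4.86 CPM in control and 3.40, 10.9 and 11.4 CPM in wounding libraries. The groups overlapped through wounding 1, and the difference of 0.99 ± 0.47 did not pass (edgeR FDR 0.138). The maize ocs element-binding factor obf3.2 (GRMZM2G125243) lay between 10.9 and 22.8 CPM in all 12 libraries.

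The member that fell most was GRMZM2G066734, a bZIP gene with no further name in the sources used. It had 21.2, 15.1 and 18.3 CPM in control libraries and 0.19, 1.09 and 0.22 CPM in wounding libraries, that is, 172, 96 and 136 counts against 1, 5 and 1. The log2 fold change was -5.17 ± 0.51 (SE, edgeR FDR 0.000922), and -6.34 without wounding 2. The regurgitate libraries were low as well, at 2.0, 0.37 and 0.15 CPM. The larva libraries lay between, at 4.89, 5.71 and 4.74 CPM. No larva, wounding or regurgitate library reached the lowest control library. In bulk tissue, fewer cells that express a gene and less RNA per cell cannot be told apart, here and in all results on single genes.

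GRMZM2G000842 was the member with the steepest rise. It had 1, 0 and 2 counts in control libraries and 17, 57 and 31 counts in wounding libraries. The ratio of the summed counts, corrected for library size, was 53.4, with a 95% interval of 17.8 to 263 that covers counting error only. The edgeR FDR was 0.00295. The gene was under the filter's minimum in all control libraries, so that it entered this test only through the wounding libraries, in which it is high, and its call adds no support to the counts above. In regurgitate libraries it had 5, 54 and 4 counts, so that its level there rested on regurgitate 2. In larva libraries it had 4, 1 and 0 counts.

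bZIP76 (GRMZM2G134863) and bZip37 (GRMZM5G858197) also rose after wounding. bZIP76 had 4.56, 2.52 and 2.70 CPM in control and 11.9, 25.1 and 24.2 CPM in wounding libraries, a log2 fold change of 2.61 ± 0.39 (SE, edgeR FDR 0.00312). bZip37 had 12.3, 13.1 and 14.3 CPM in control and 32.3, 47.0 and 37.6 CPM in wounding libraries, a log2 fold change of 1.54 ± 0.20 (SE, edgeR FDR 0.0018). Neither overlapped between the groups, and both were close to control in the larva libraries, at 3.10 to 3.91 CPM and 13.3 to 16.8 CPM. RefSeq gives the name bzip76 to a further gene, GRMZM2G055413, which had 37.8 to 56.1 CPM over all 12 libraries and was not called.

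Of the other members that rose after wounding, GRMZM2G056099 had the smallest FDR, with 74.2, 75.2 and 61.5 CPM against 39.1, 35.5 and 44.4 CPM in the control, a log2 fold change of 0.81 ± 0.17. The remaining risers were GRMZM2G019106 (1.33 ± 0.41), bZIP70 (GRMZM2G060290, 0.99 ± 0.28), GRMZM2G025812 (0.93 ± 0.29), bZIP43 (GRMZM2G149150, 0.75 ± 0.19), GRMZM2G166873 (0.61 ± 0.18) and GRMZM2G002075 (0.60 ± 0.20), all as log2 fold change and SE. The edgeR FDR of these 7 genes lay between 0.0108 and 0.0499. All but GRMZM2G056099 lost the call when at least 1 control library was left out, and all of them lost it when libraries were scaled by total counts only.

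Besides GRMZM2G066734, the members that fell after wounding were bZIP110 and 4 unnamed genes. bZIP110 (GRMZM2G079365) had 29.0, 20.9 and 22.7 CPM in control and 10.4, 9.84 and 10.7 CPM in wounding libraries, a log2 fold change of -1.24 ± 0.20 (SE, edgeR FDR 0.00391). The 3 wounding values were the most even of any member in that group, with a coefficient of variation of 4.39%. GRMZM2G171912 had 17.9, 20.1 and 18.9 CPM in control and 10.8, 8.96 and 9.39 CPM in wounding libraries (-0.98 ± 0.19, edgeR FDR 0.00714). The others were GRMZM2G118870 (-1.64 ± 0.40), GRMZM2G175870 (-1.51 ± 0.34) and GRMZM2G136266 (-0.95 ± 0.29). The call of GRMZM2G118870 was lost without control 1 or control 3, and that of GRMZM2G136266 without any 1 of the 6 libraries. In all of these, every wounding library lay below every control library.

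**Figure D3:**
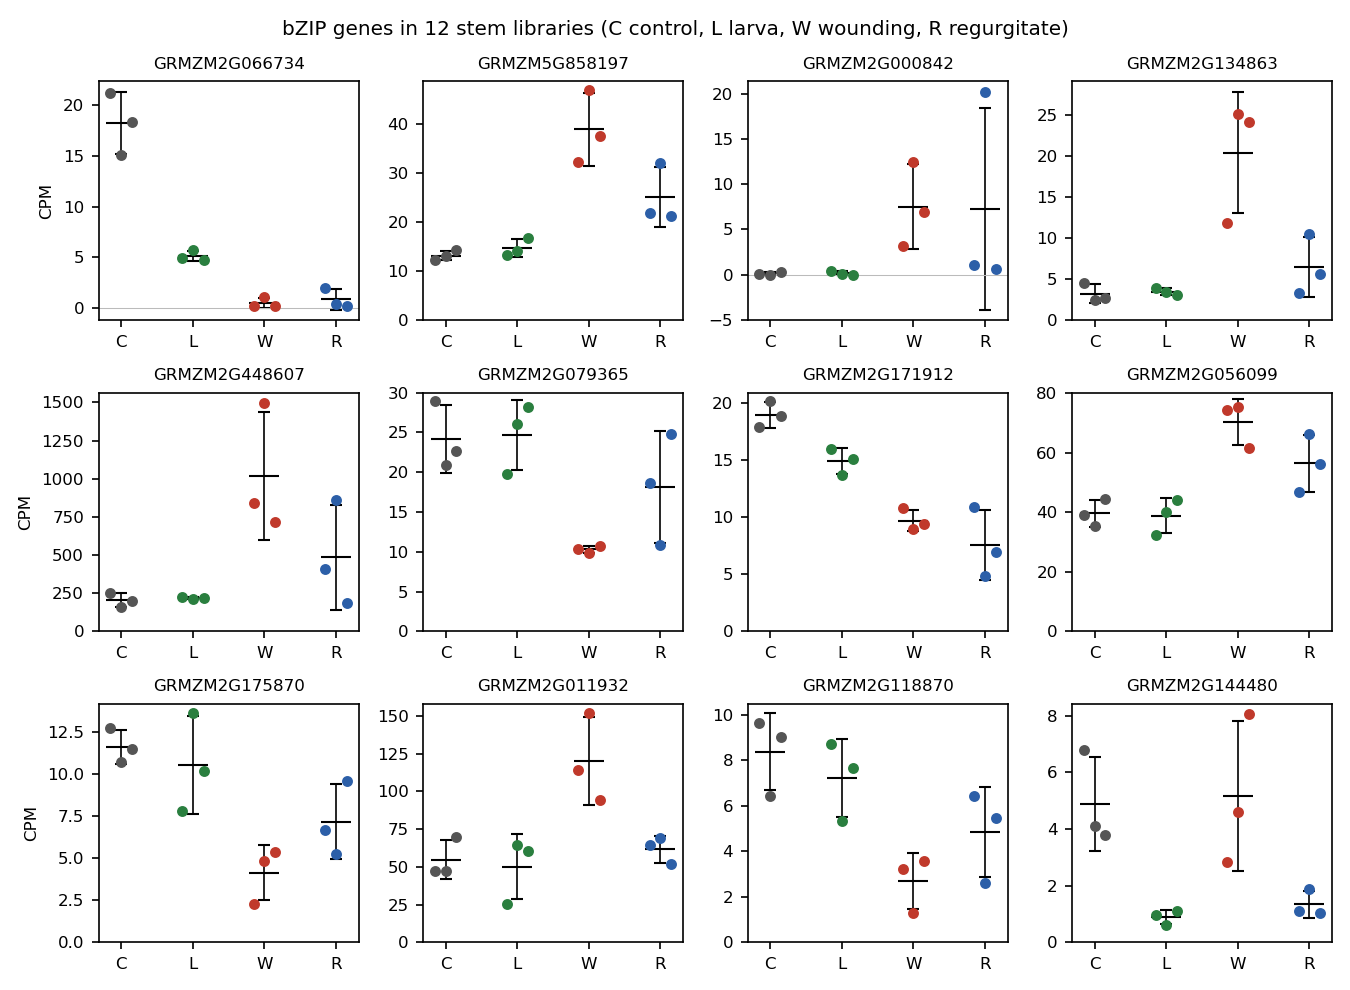
CPM in each library (points) with the mean and SD of 3 libraries (bars) for the 11 bZIP genes with the smallest p between wounding and control libraries, and for GRMZM2G144480. GRMZM2G066734 is above 15 CPM only in control libraries, and GRMZM2G448607 reaches 720 to 1497 CPM in wounding libraries.

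The libraries that differ in these genes also differ in other ways. Beside their fungal shares of 10.9 to 24.9%, the wounding libraries had lower levels of stem wall and lignin markers, of which 16 of 27 tested fell and 4 rose (edgeR FDR under 0.05), with a summed level of 984 to 1219 CPM against 1277 to 4050 CPM in control libraries. The leaf marker list had 5 of 24 genes lower and 0 higher, and the pollen list 5 of 12 lower and 1 higher, where 19.3% of all genes were lower and 19.6% higher. The zein markers of endosperm stayed below 23.2 CPM, their level in regurgitate 2. The part of these shifts in the bZIP results was not tested. Wounding libraries were also less even among themselves: the median coefficient of variation of the 41 members was 32.8%, against 17.2% in control and 16.7% in larva libraries, while over all genes of at least 1 CPM it was 24%, 19.5% and 16.4%. The regurgitate libraries had 25.6% for the members and 29.5% for all genes, the highest of the 4 groups over all genes.

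The next comparison asked how the stem responded to 15 days with larvae. None of the 40 members tested passed, and neither did any of the 19612 maize genes tested (0% called, edgeR FDR under 0.05). At an unadjusted p under 0.05 there were 5 members, 12.5% of those tested against 9.78% of all genes. All 5 were lower in larva libraries, a direction seen at this p in 5.11% of all genes, while 0 members and 4.67% of all genes were higher. A total of 7 members had larva libraries that lay wholly below the control libraries and 0 wholly above, against 7.07% and 8.45% of all genes. The 5 and the 7 both include GRMZM2G144480. This gene was under the filter's minimum in every larva library, so that it adds no support to these shares. The median log2 fold change was -0.07 over the members and -0.01 over all genes.

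Of these, GRMZM2G066734 had the smallest p. Its larva levels, given above, were about even and all below 6 CPM, while no control library was under 15 CPM. The log2 fold change was -1.84 ± 0.20 (SE, edgeR FDR 0.126). GRMZM2G144480, also unnamed, had 6.78, 4.09 and 3.78 CPM in control and 0.98, 0.61 and 1.09 CPM in larva libraries, again without overlap (-2.47 ± 0.39, edgeR FDR 0.228). DESeq2 called both genes lower, with FDRs of 1.26e-07 and 0.00165, and called 1.39% of all genes in this comparison. With larva 2 and 3 summed as 1 sample, edgeR gave both an FDR of 0.842. GRMZM2G144480 was under the filter's minimum in every larva library and so entered the test through the control libraries. bZIP43 (-0.59 ± 0.19) and GRMZM2G171912 (-0.36 ± 0.14) were the remaining members with an unadjusted p under 0.05 beside the CPRF-2 gene. On the positive side, TGA4 was followed by GRMZM2G002075 (0.27 ± 0.21) and GRMZM2G073892 (0.23 ± 0.19), none of which passed. In all 5 genes each larva library, larva 1 with its virus counts included, was below each control library.

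The comparison of regurgitate with wounding libraries asked what regurgitate added to a wound. None of the 40 members tested passed, against 0.0602% of all maize genes (edgeR FDR under 0.05, 11 of 18285). At an unadjusted p under 0.05, 4 members were higher and 7 lower in regurgitate libraries, together 27.5% of those tested against 19.8% of all genes (9.35% higher and 10.4% lower). The groups did not overlap for 10 members, against 26.4% of all genes. The 7 lower members and these 10 both include GRMZM2G144480. This gene was under the filter's minimum in every regurgitate library, so that it adds no support to these shares. The median log2 difference was 0.04 over members and -0.02 over all genes.

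GRMZM2G144480 was again among the lowest. It had 1.11, 1.87 and 1.03 CPM in regurgitate and 2.83, 4.59 and 8.05 CPM in wounding libraries, without overlap (-1.99 ± 0.54, edgeR FDR 0.124), and entered the test through the wounding libraries. Its wounding levels were like those in control, and its regurgitate levels were like those with larvae. GBF1 (-0.97 ± 0.25, edgeR FDR 0.111) and bZIP76 (-1.70 ± 0.49, edgeR FDR 0.135) were likewise lower in every regurgitate library than in every wounding library. bZIP76 had 3.33, 10.5 and 5.62 CPM with regurgitate. On the positive side, GRMZM2G120167 had 56.9, 64.3 and 62.7 CPM in regurgitate and 42.9, 39.6 and 35.1 CPM in wounding libraries (0.64 ± 0.18, edgeR FDR 0.129). Next came bZIP110 (0.82 ± 0.34), at 18.7, 10.8 and 24.8 CPM, and G-box-binding factor 4. DESeq2 called GBF1, GRMZM2G120167, bZIP76 and GRMZM2G144480, 4 of 40 members against 8.93% of all genes. A fit of all 12 libraries called bZIP76, GRMZM2G144480 and bZIP43, 3 of 41 members against 8.84% of all genes. Both shares were near those of all genes.

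Against control, regurgitate libraries differed in 1 of 40 members, 2.5% against 1.28% of all genes, or 0.193% counting only genes that were lower (edgeR FDR under 0.05). The control libraries are the same as in the larva and wounding comparisons, so that these comparisons are not independent. The gene was GRMZM2G066734, with a log2 fold change of -4.44 ± 0.72 (edgeR FDR 0.0466). Among its regurgitate libraries only regurgitate 1 reached the filter's minimum. The gene passed the filter through the control libraries, in which it is high, so that its call adds no support to the share above. The fold change was -6.28 without regurgitate 1 and -3.75 without regurgitate 3. It lost the call without any 1 control library or without regurgitate 2, and its FDR ran from 1.5e-07 to 0.154 over the alternatives. Next were GRMZM2G144480 (-1.94 ± 0.44, edgeR FDR 0.0984), GRMZM2G171912 (-1.32 ± 0.32, FDR 0.107) and, on the positive side, bZip37 (0.90 ± 0.23, FDR 0.12), whose regurgitate levels of 22.0, 32.1 and 21.3 CPM were all above control. GRMZM2G144480, too, entered this test only through the control libraries. At an unadjusted p under 0.05, 7 members were higher and 4 lower, 27.5% against 19.4% of all genes (11.4% higher and 8.02% lower). The groups did not overlap for 15 members, against 29.4% of all genes. The 4 lower members and these 15 both include GRMZM2G066734 and GRMZM2G144480, which add no support to these shares.

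**Figure D4:**
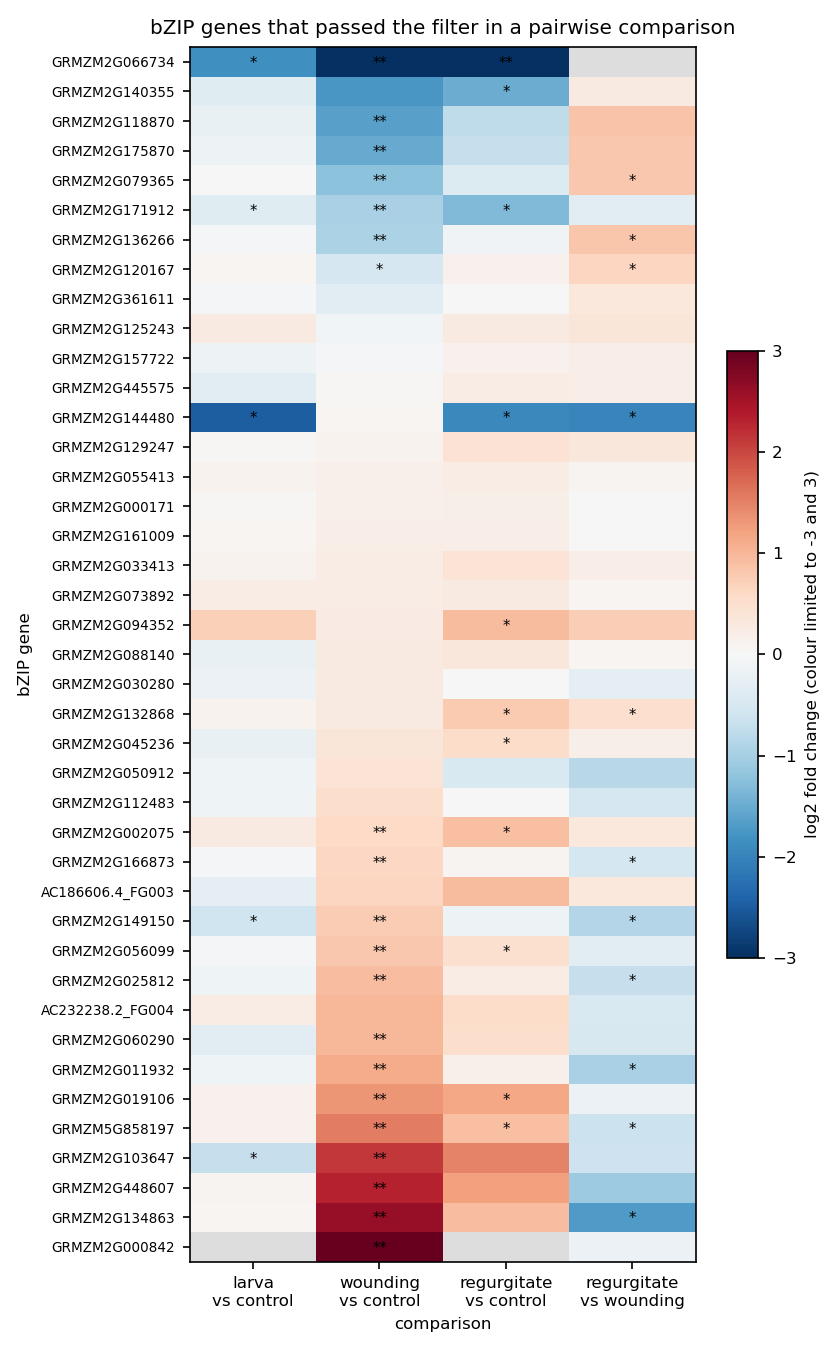
Log2 fold change of the 41 bZIP genes that passed the filter in at least 1 pairwise comparison (rows, ordered by wounding vs control) in the 4 comparisons (columns), with colour limited to -3 and 3, grey where a gene was not tested, a double star for an FDR under 0.05 and a single star for an unadjusted p under 0.05. Double stars stand at 19 genes for wounding vs control, at GRMZM2G066734 for regurgitate vs control and at 0 genes in the other columns.

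A single test of any difference among the 4 treatments called 20 of 41 members, 48.8% against 33.9% of all genes (edgeR FDR under 0.05). The 20 include GRMZM2G000842 and GRMZM2G144480, which passed the filter only through libraries in which they are high. GRMZM2G066734 is also among the 20. It was under the filter's minimum in every wounding library and passed through libraries of other groups, in which it is higher. The calls of these genes add no support to this share. GRMZM2G144480 passed here (FDR 0.00421), with control and wounding libraries at 2.83 to 8.05 CPM and larva and regurgitate libraries at 0.61 to 1.87 CPM. bZIP34 (GRMZM2G045236) passed too (FDR 0.0207), with 19.2, 18.6 and 21.5 CPM in larva and 28.5, 38.1 and 34.0 CPM in regurgitate libraries. G-box-binding factor 4 was the remaining gene called in this test and in none of the 4 pairwise comparisons. Larva was not compared with wounding or with regurgitate in a test of its own. The difference between the larva response (larva minus control) and the regurgitate response (regurgitate minus wounding) was called for 0 of 41 members, against 1.15% of all genes. At an unadjusted p under 0.05 there were 3 members, bZIP76 (1.78 ± 0.61), bZip37 (0.79 ± 0.29) and GRMZM2G066734 (-2.55 ± 1.03), against 17% of all genes.

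Genes of families with members that work with bZIP factors were listed by their descriptions. Of the abscisic acid signalling genes, 9 were tested between wounding and control, and 3 rose and 4 fell (edgeR FDR under 0.05). They were SnRK2 or SAPK kinases, which phosphorylate ABF factors, and GRMZM2G106622, described as an ABA-responsive protein, which was one of the 3 that rose (2.91 ± 0.64, FDR 0.0125, named after its value was seen). No receptor was among them. The kinase gene GRMZM2G334791 fell from 43.5, 53.3 and 45.5 CPM to 5.67, 4.81 and 7.61 CPM (-2.99 ± 0.22, FDR 0.000492). The kinase gene GRMZM2G130018 rose from 61.4, 37.3 and 43.8 CPM to 193, 211 and 174 CPM (2.01 ± 0.24, FDR 0.00145). Members of the list thus moved both ways.

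The list of TGA partners held NPR1-type proteins and glutaredoxins, small redox proteins of which some interact with TGA factors in Arabidopsis. It took glutaredoxins of every subgroup, and whether each one binds a TGA factor was not tested. Of the 19 genes tested, 4 rose and 2 fell after wounding. GRMZM2G148387, which rose, and GRMZM2G150295, which fell, are described as subgroup I, and the others called as subgroup III. The glutaredoxin genes GRMZM2G178886 (3.45 ± 0.43) and GRMZM2G311898 (2.77 ± 0.36) had the smallest p. The first had 5.55, 16.5 and 9.58 CPM in control and 97.1, 153 and 98.2 CPM in wounding libraries. Of the 16 FD partners (14-3-3 proteins and florigen relatives), 2 rose and 2 fell, among them a 14-3-3-like gene, GRMZM2G145213 (1.45 ± 0.20), and the florigen relative ZCN14 (GRMZM2G373928, -1.38 ± 0.26). Of the 12 genes for chaperones of the endoplasmic reticulum, targets of the bZIP factor of the unfolded protein response in plants, 2 rose and 1 fell. The features that rose, named after their values were seen, are both described as luminal-binding proteins (BiP), the main chaperones of that compartment. The luminal-binding protein 3 feature joins GRMZM2G415007 with genome intervals and many contigs of reads that did not map to maize. Its counts are therefore not those of a maize gene alone. It had 89.5, 118 and 114 CPM in control and 260, 792 and 314 CPM in wounding libraries (2.07 ± 0.45, edgeR FDR 0.0114). In regurgitate libraries it had 256.5, 1134 and 74.33 CPM. Its highest values were in regurgitate 2 and wounding 2, with fungal shares of 14.7 and 24.9%. The part of the fungal material in this rise was not tested. Luminal-binding protein 2 (GRMZM2G114793) rose by 1.14 ± 0.33 on the log2 scale (edgeR FDR 0.0313). The gene that fell was the protein disulfide isomerase GRMZM2G014076 (-1.47 ± 0.23). Another, GRMZM2G106344, was lower with regurgitate than with wounding alone and did not pass (-1.94 ± 0.29, edgeR FDR 0.0783). In the larva and regurgitate vs wounding comparisons 0 genes of these lists passed, and in regurgitate vs control 1 TGA partner passed, which was lower. The share of all maize genes called was 38.8% in wounding vs control, 0% in larva vs control, 0.0602% in regurgitate vs wounding and 1.28% in regurgitate vs control.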

How the data were processed

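The authors removed reads that were copies by barcode and sequence, aligned the rest with Novoalign 3.00.05 to the maize genome and then its transcriptome, and assembled and annotated the reads left over. They deposited counts per feature (maize gene, genome interval or contig) and library, without normalization, and all values here start from these deposited counts. Deposited means and the authors' own DESeq results were not used.

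Maize genes were tested with edgeR 4.0.16 (limma 3.58.1, R 4.3.3): filterByExpr (minimum count 10, minimum total 15), TMM scaling, and the quasi-likelihood F test on the 6 libraries of each pair, with Benjamini-Hochberg adjustment over all genes tested. Levels are CPM from TMM scaling of 12 libraries. The row without a feature held at most 0.289% of counts. With 3 libraries per group, the spread between replicates limits precision.

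The members, lists and tests were chosen with earlier results of these data known. Named genes are members called in a pairwise or the 4-treatment test, the 3 smallest p in each direction per pairwise comparison, the 5 highest levels, members with a described name or role, and the 2 smallest p per partner list. In lists, PYL, PYR1 and BiP were matched as whole words, which left out 6 rows of the abscisic acid list and 1 row of the endoplasmic reticulum list that only contained these letters. Tested settings were scaling, filter, features, DESeq2 1.42.0, the replicate block, a joint fit and each library left out. Same-numbered regurgitate and wounding libraries had deviations from their group means with correlations of 0.156, 0.315 and 0.165. In the other comparisons these correlations ran from -0.236 to 0.208, the highest in replicate 3 of larva vs control. Differently numbered libraries were not compared, so that these values cannot show a pairing, and the labels give none. The counting is not stated to use strand, so overlapping genes cannot be told apart.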

Additional observations from a re-analysis of the deposited data

Results flagged for a closer look

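Counts outside the maize genes stood above the control libraries in several libraries. Contigs matched to fungal proteins held 3.32% of the counts in larva 1, 4.57% in regurgitate 1, 14.7% in regurgitate 2, 10.9% in wounding 1, 24.9% in wounding 2 and 12.4% in wounding 3, against at most 0.502% in a control library. Contigs matched to fungal bZIP proteins held 30 counts in larva 1, 30 in regurgitate 1, 13 in regurgitate 2, 54 in wounding 1, 246 in wounding 2 and 325 in wounding 3, against at most 5 in a control library. These contigs are no maize members and entered none of the sums above. A contig described as maize chlorotic dwarf virus held 83303 counts in larva 1, against at most 443 in a control library.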

How the results depend on the processing

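Counts of called bZIP genes changed as follows. For larva vs control (0), DESeq2 called 2 and every other setting 0. For regurgitate vs wounding (0), DESeq2 called 4 and a fit of all 12 libraries 3. For wounding vs control (19), scaling by total counts gave 12 and leaving out 1 library gave 10 to 17. For regurgitate vs control (1), DESeq2 called 4 (8.9% of all genes), the fit of all 12 libraries 5 (5.88%), a filter on a mean of 10 counts 0, every deposited feature 0, and leaving out 1 library 0 to 1. For the 4 treatments (20), every deposited feature gave 11 and leaving out 1 library 10 to 20, with 10 without wounding 2. For the difference of responses (0), leaving out 1 library gave 0 to 2, with 2 without regurgitate 2. With the replicate number as a block, 12 members passed for wounding vs control and 0 for regurgitate vs control. In regurgitate vs wounding the block gave 0 as before. By the labels, libraries of different treatments share only a number. Over 37 pairs of a named gene and a comparison, the alternatives gave 561 values, with 0 changes of direction, 71 lost calls and 15 gained calls. The pairs were picked by call or small p in these same libraries. Few changes of direction could therefore arise, and their absence is no independent support. The causes were not tested. Depth limits the 22 members under the filter, and 3 libraries per group limit the rest.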

Other observations

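GRMZM2G008166, a bZIP gene that was too low for the tests, had 2, 1 and 1 counts in control libraries and 6, 9 and 8 counts in larva libraries. In regurgitate libraries it had 5, 1 and 4 counts and in wounding libraries 6, 2 and 5. GRMZM2G438652, also too low, had 6, 6 and 13 counts in control and 1, 2 and 1 in larva libraries. In regurgitate libraries it had 1, 0 and 1 counts and in wounding libraries 0, 0 and 0. Both genes were picked after their values were seen and were left out of the main tests. Beside the 63 genes, 5 intervals of the genome outside named maize genes were described as bZIP. They held 228, 297 and 367 counts in control, 203, 248 and 175 in larva, 177, 114 and 217 in regurgitate, and 330, 398 and 273 in wounding libraries, which differ in depth.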
